A study of Mus musculus with 34 samples.

Results

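The genes described here are 36 immediate-early and heat-shock genes, of which 35 were measured among the 22180 genes of the array. They were taken as a named list, and each is represented by a probe set annotated to its symbol alone. Where a gene had several, the brightest on average across the arrays was taken. The list holds 27 immediate-early genes, all measured, and 9 heat-shock genes, of which Dnaja1 has only a probe set shared with the microRNA gene Mir207, leaving 8. Membership rests on names and not on measured values of these samples, although the list was drawn up with earlier results of these data known.

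Immediate-early genes are transcribed within minutes of a signal, from factors already present in the cell, without new protein synthesis. Many encode transcription factors (the AP-1, EGR, NR4A and KLF families), and others encode proteins that end the signal, such as phosphatases of the MAP kinases or proteins that destroy short-lived mRNA. Heat-shock genes are switched on by the factor HSF1 when proteins misfold, and encode chaperones. In dendritic cells (DCs), which take up antigen and show it to T cells, both families are known to respond to activation, to stress and to tissue dissociation.

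The samples were DCs sorted by FACS from the spleen of C57BL/6 mice, on 34 Affymetrix arrays in 11 groups. The CD8+ subset specialises in cross-presenting antigen to CD8 T cells and the CD8- subset in priming CD4 T cells. Each subset came as 4 arrays of genotype Mst1/2-/- (Mst1/2-KO) and 4 arrays of wild-type (WT), Mst1 and Mst2 being kinases of the Hippo pathway. Total DCs came as 3 Mst1/2-KO and 4 WT arrays. In experiment 1, DCs treated with anti-CD40, which triggers an activating receptor of DCs, came as 3 arrays labelled Rag1-KO p38-KO and 4 labelled Rag1-KO, Rag1-/- mice having no mature T or B cells and p38 being a stress-activated MAP kinase. In experiment 2, anti-CD40 Rag1-KO DCs (2 arrays) stood beside a lone non-stimulated Rag1-KO array and a lone anti-CD40 WT array. Age, antibody dose and time, and the cells in which each gene was deleted are not stated in the labels or protocols. Nothing there says that arrays of a group came from separate mice, so p-values measure the spread between these arrays, which may be technical.

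Array medians of the log2 signal ranged from 4.11 to 4.20, and precision is limited by the number of arrays. Stk4, which encodes Mst1, was lower in Mst1/2-KO than in WT cells in all 3 genotype comparisons, with log2 differences of -0.86 (CD8+), -0.77 (CD8-) and -1.09 (total). This checks the Mst1 label only. Markers of DCs averaged 10.3 to 10.6 in every group. CD8+ markers averaged 11.2 (Mst1/2-KO) and 11.1 (WT) in sorted CD8+ DCs against 8.78 (Mst1/2-KO) and 8.15 (WT) in CD8- DCs. Levels carry a constant per probe set and experiment, so all comparisons stay within an experiment, and levels of different genes are not set against each other. In these bulk samples, fewer cells of a type and less RNA per cell cannot be told apart.

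Start regions of some members are shown because elements in them bind the factors that induce the 2 families. The CArG box binds serum response factor, which drives many immediate-early genes, and the heat-shock element, inverted repeats of GAA, binds HSF1. RefSeq windows from 250 bases before to 50 bases after the start site (GRCm38.p6) were found for 28 of the 36 members. Some members, such as Egr2 and Hsph1, have several windows, and a member counted if any of its windows matched. The shares of all windows, here and for the heat-shock elements below, are per single window, so the measures are unlike. A CArG box was found in the windows of 3 of these 28 (Zfp36, Dusp5 and Egr2), against 1.63% of all 32851 windows. The cAMP response element TGACGTCA was found in that of Btg2 alone, against 1.79% of all windows. In the sequences below, capitals mark the CArG box, which in Dusp5 is a pair of adjoining boxes. They come from Zfp36 (chr7:28379229-28379348, minus strand), Dusp5 (chr19:53529025-53529144, plus strand) and Egr2 (chr10:67537787-67537816, plus strand).
Zfp36: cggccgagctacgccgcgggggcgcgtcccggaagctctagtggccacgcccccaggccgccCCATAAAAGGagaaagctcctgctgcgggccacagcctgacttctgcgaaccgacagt
Dusp5: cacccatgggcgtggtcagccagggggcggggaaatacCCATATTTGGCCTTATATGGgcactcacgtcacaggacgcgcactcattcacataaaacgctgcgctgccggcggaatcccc
Egr2: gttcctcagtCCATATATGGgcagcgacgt

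A heat-shock element of 3 units (GAANNTTCNNGAA or TTCNNGAANNTTC) was found for Hspd1, Hspe1 and Hsph1, against 0.603% of all windows. The shorter element of 2 units (GAANNTTC or TTCNNGAA), searched on both strands and part of the longer one, was found for 9 members, against 15.1% of all windows. Capitals mark a pair of overlapping 3-unit elements in Hspe1 (chr1:55088053-55088082, plus strand), where they also lie upstream of the opposite-strand gene Hspd1, and the shorter element in Hspa1a (chr17:34972157-34972276, minus strand) and Hspa1b (chr17:34959239-34959358, minus strand).
Hspe1: ggtccgTTCTAGAACCTTCCGGAAggcccc
Hspa1a: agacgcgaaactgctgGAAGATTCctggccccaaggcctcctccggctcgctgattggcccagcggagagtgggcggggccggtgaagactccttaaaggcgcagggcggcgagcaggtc
Hspa1b: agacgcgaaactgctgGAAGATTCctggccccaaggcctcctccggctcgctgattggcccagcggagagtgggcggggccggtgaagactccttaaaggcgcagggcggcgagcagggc
The Hspa1a and Hspa1b stretches are identical at 119 of 120 bases. The genes are near-identical copies, and their probe sets may each read both transcripts. A match is a description of these letters and not of factor binding.

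In CD8+ DCs, the feedback genes Gadd45b and Rgs1 were called lower in Mst1/2-KO cells, and no member was called higher. Gadd45b, a stress-induced activator of a kinase upstream of p38 and JNK, had 8.59, 8.19, 7.59 and 7.78 on the Mst1/2-KO CD8+ arrays and 9.95, 9.82, 9.93 and 9.92 on the WT CD8+ arrays (log2 signal, arrays 1 to 4). The groups lay far apart, with a mean of 8.04 ± 0.44 on the Mst1/2-KO arrays and 9.91 ± 0.06 on the WT arrays (SD, n = 4 each). Gadd45b was 3.65-fold lower (log2 difference -1.87 ± 0.18 SE, limma adjusted p = 1.93e-05). Rgs1, a GTPase activator that shuts off chemokine receptor signalling, had 8.72, 8.64, 8.16 and 8.27 in Mst1/2-KO CD8+ DCs, against 9.68, 9.12, 9.02 and 9.16 in WT CD8+ DCs. The groups did not overlap, and Rgs1 was 1.73-fold lower (-0.79 ± 0.16, adjusted p = 0.0185). These 2 of 35 members stood against 0.654% of all 22180 genes called lower and 0.234% called higher.

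Among the members that did not pass, the largest differences were in Dusp5 and Nr4a3. Dusp5, a nuclear phosphatase of ERK, had 7.58, 7.37, 7.43 and 7.06 in Mst1/2-KO CD8+ DCs, against 8.57, 8.18, 7.64 and 7.91 in WT CD8+ DCs (-0.71 ± 0.20, adjusted p = 0.137). Nr4a3, an orphan nuclear receptor, had 10.63, 10.18, 10.17 and 9.83 in Mst1/2-KO CD8+ DCs, against 11.62, 10.67, 10.50 and 10.75 in WT CD8+ DCs (-0.68 ± 0.30, adjusted p = 0.420). The Dusp5 groups did not overlap, the Nr4a3 groups did, and in both genes WT array 1 was the highest of the 8. All 8 feedback and RNA-turnover members had differences below 0 (median -0.50), among them Gem (-0.58) and Dusp2 (-0.41), whose groups did not overlap either. The 3 EGR members lay above 0 (0.13 to 0.62, none called). Myc, the growth-promoting transcription factor, was the member whose Mst1/2-KO CD8+ arrays (7.99, 7.87, 8.19 and 8.26) all lay above the WT CD8+ arrays (6.73, 7.62, 7.44 and 7.83), at 0.67 ± 0.18 with an adjusted p of 0.109. Groups were apart in this sense for 5 members below and 1 above, against 3.03% and 3.30% of all genes. Differences were below 0 for 25 of 35 members, against 48.5% of all genes, and 8 members had an unadjusted p under 0.05, against 10.6%. The 27 immediate-early members had a median of -0.16, the 8 heat-shock members 0.01 and all genes 0.00. The Rgs1 call ended without WT CD8+ array 1, without Mst1/2-KO CD8+ array 3 or 4, with both WT arrays numbered 1 left out, and with only these 2 groups in the fit (adjusted p from 0.00609 to 0.0844 over 17 alternatives). Without WT CD8+ array 1, Egr1 was called higher (0.75, adjusted p = 0.0166), and without WT CD8+ array 4, Myc was called higher (0.82, adjusted p = 0.0483).

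**Figure D1:**
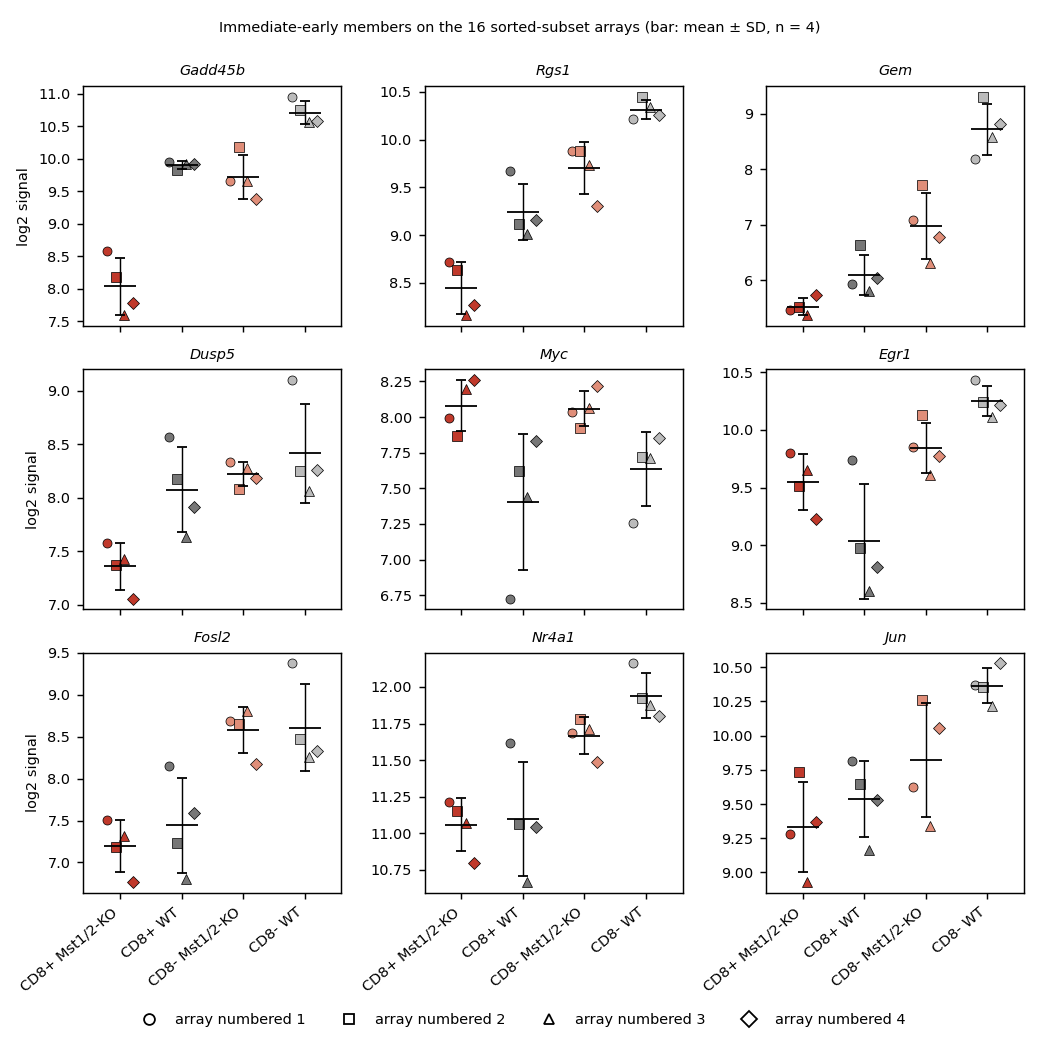
Log2 signal (y axis) of 9 immediate-early members on each of the 16 sorted-subset arrays, by group (x axis), with marker shapes for the array numbers and bars for mean ± SD (n = 4). Gadd45b and Rgs1 were lower in Mst1/2-KO than in WT cells of both subsets without overlap, and WT CD8+ array 1 lay above the other WT CD8+ arrays in Egr1, Fosl2 and Nr4a1 and below them in Myc.

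In CD8- DCs, Gem, Gadd45b and Rgs1 were called lower in Mst1/2-KO cells, and no member was called higher. Gem, a small GTPase that restrains voltage-gated calcium channels, had 7.08, 7.72, 6.31 and 6.78 in Mst1/2-KO CD8- DCs, against 8.18, 9.30, 8.57 and 8.81 in WT CD8- DCs. Every Mst1/2-KO array lay below every WT array, and Gem was 3.35-fold lower (-1.74 ± 0.26, adjusted p = 0.000559). Gadd45b had 9.66, 10.18, 9.66 and 9.39 in Mst1/2-KO CD8- DCs, against 10.95, 10.76, 10.57 and 10.58 in WT CD8- DCs, a 1.99-fold lower level (-0.99 ± 0.18, adjusted p = 0.00269). Rgs1 had 9.88, 9.88, 9.74 and 9.31 in Mst1/2-KO CD8- DCs, against 10.21, 10.44, 10.34 and 10.26 in WT CD8- DCs, a 1.53-fold lower level (-0.61 ± 0.16, adjusted p = 0.0252). In both genes the groups were apart, with Mst1/2-KO array 4 the lowest of all 8. These 3 of 35 members stood against 2.79% of all genes called lower and 3.90% called higher.

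The other members in CD8- DCs leaned downward without passing the test in this fit. Differences were below 0 for 32 of 35 members, against 49.6% of all genes, and 19 members had an unadjusted p under 0.05, against 18.1% of all genes. The exceptions were Ier2 (0.04), Egr3 (0.09) and Myc (0.42), the last again with Mst1/2-KO arrays (8.04, 7.92, 8.06 and 8.22) all above WT arrays (7.26, 7.72, 7.71 and 7.85, adjusted p = 0.220). Groups were apart for 4 members below and 1 above, against 5.46% and 6.52% of all genes. All 8 heat-shock members lay below 0 (median -0.31, all genes 0.00). Dnajb1, the Hsp40 co-chaperone that hands substrates to Hsp70, had the largest heat-shock difference, with 6.61, 8.16, 6.38 and 7.99 in Mst1/2-KO CD8- DCs against 7.52, 8.83, 8.34 and 8.68 in WT CD8- DCs (-1.06 ± 0.41, adjusted p = 0.159). Its Mst1/2-KO arrays fell into a low pair (1 and 3) and a high pair (2 and 4), so the groups overlapped. With the array number as a block, 10 members were called, all lower, against 2.99% of all genes called lower. Among them were Dnajb1 (-1.06, adjusted p = 0.00284), Hsph1 (-0.60, adjusted p = 0.00724) and Hspa1b (-0.49, adjusted p = 0.0289). Array weights called Dnajb1 and Hsph1 lower too, as leaving out WT CD8- array 1 did Hsph1. The numbers were not taken to pair arrays between genotypes.

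Markers of other cells differed between the same arrays. Plasmacytoid DC markers were called higher in Mst1/2-KO CD8- DCs for 4 of 5 (mean over the list 8.68 to 9.10 on the Mst1/2-KO arrays, 7.33 to 8.02 on the WT arrays), and B cell markers were called lower for 3 of 5 (5.01 to 5.22 against 5.77 to 6.18). Of the 7 markers of CD8- DCs themselves, 4 were called lower (8.38 to 8.77 against 9.38 to 9.54), and of the 7 markers of CD8+ DCs, 5 were called higher (8.45 to 8.92 against 7.86 to 8.51). T cell markers were called lower for 1 of 5, and macrophage and monocyte markers for 1 of 6, with 1 higher. Their part in the members' differences was not tested. Leaving out Mst1/2-KO CD8- array 2 raised the count of called members to 6. The Rgs1 call ended without WT CD8- array 2 or 3 or Mst1/2-KO CD8- array 3 or 4 (adjusted p from 0.00969 to 0.0961 over 17 alternatives).

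The question whether the genotype difference itself differed between the subsets was tested as an interaction over the same 16 arrays, the Mst1/2-KO minus WT difference in CD8+ DCs minus that in CD8- DCs. No member was called, against 0.559% of all genes, and 6 members had an unadjusted p under 0.05 (9.15% of all genes). Values were above 0 for 26 of 35 members, against 49.9% of all genes. Gem had the largest value (1.17 ± 0.37, adjusted p = 0.213), its Mst1/2-KO minus WT difference being -0.58 in CD8+ and -1.74 in CD8- DCs. Egr1, a zinc-finger transcription factor, was next (0.92 ± 0.27, adjusted p = 0.161). It had 9.80, 9.51, 9.65 and 9.22 in Mst1/2-KO CD8+ DCs against 9.74, 8.98, 8.60 and 8.81 in WT CD8+ DCs, and 9.85, 10.13, 9.61 and 9.77 in Mst1/2-KO CD8- DCs against 10.43, 10.24, 10.11 and 10.22 in WT CD8- DCs. Its difference was above 0 in CD8+ DCs (0.51) and below 0 in CD8- DCs (-0.41), neither called, and WT CD8+ array 1 stood above the other WT CD8+ arrays. Without that array the Egr1 interaction was called (1.16, adjusted p = 0.00972). Gadd45b had -0.88 ± 0.26 (adjusted p = 0.171), its difference being larger in CD8+ DCs by value, and Dnajb1 had 0.82 ± 0.58 (adjusted p = 0.759). Gem was thus called in CD8- DCs and not in CD8+ DCs without a call on the difference itself.

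**Figure D2:**
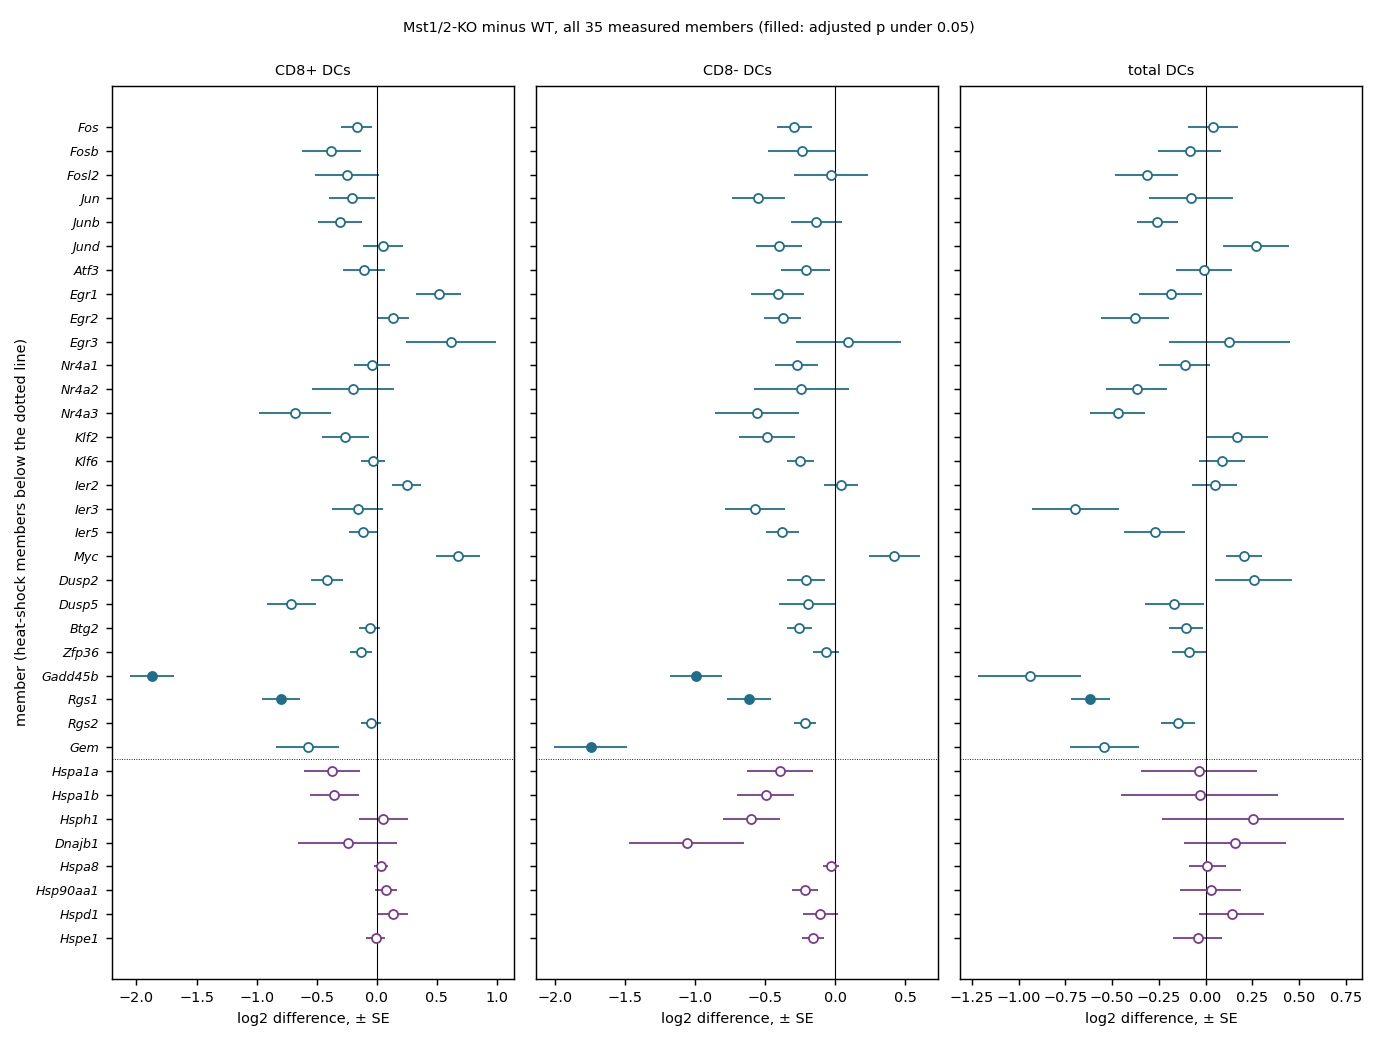
Log2 difference, Mst1/2-KO minus WT, of the 35 measured members (rows) in CD8+, CD8- and total DCs, with the standard error from limma as bars, immediate-early members above and heat-shock members below the dotted line, and filled points where the adjusted p was under 0.05; the x axes differ in range. Filled points are Gadd45b and Rgs1 in CD8+ DCs, Gem, Gadd45b and Rgs1 in CD8- DCs and Rgs1 in total DCs, all below 0.

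In total DCs, Rgs1 was the only member called, and it was lower in Mst1/2-KO cells. It had 9.08, 9.09 and 9.30 on the 3 Mst1/2-KO arrays and 9.77, 9.80, 9.90 and 9.63 on the 4 WT arrays, which do not overlap, and was 1.53-fold lower (-0.62 ± 0.10, adjusted p = 0.0293). That is 1 of 35 members, against 0.532% of all genes called lower and 0.316% higher. Another 6 members had an unadjusted p under 0.05 (7 in all, against 13.2% of all genes), 22 of 35 lay below 0 (49.3% of all genes), and 3 were apart below (5.49%), Junb with Rgs1 and Ier3. Gadd45b had 9.02, 8.93 and 9.44 in Mst1/2-KO total DCs, against 9.29, 10.02, 10.48 and 10.51 in WT total DCs (-0.94 ± 0.27, adjusted p = 0.165), WT array 1 lying among the Mst1/2-KO arrays. Ier3, an early-response gene that limits apoptosis, had 7.83, 7.70 and 8.49 in Mst1/2-KO total DCs, against 8.51, 8.51, 8.54 and 9.26 in WT total DCs (-0.70 ± 0.23, adjusted p = 0.216). Gem had 6.58, 6.44 and 6.92 in Mst1/2-KO total DCs, against 7.23, 6.87, 7.64 and 7.01 in WT total DCs (-0.54 ± 0.19, adjusted p = 0.235). The Ier3 groups were just apart and the Gem groups overlapped.

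The 8 heat-shock members had a median of 0.02 in total DCs, with 0 called and 0 at an unadjusted p under 0.05. Of the 7 CD8- DC markers, 1 was called lower in these Mst1/2-KO arrays, and all 7 had differences below 0 (the mean of the list ran between 6.67 and 7.32 on the Mst1/2-KO arrays, and between 7.60 and 8.11 on the WT arrays). The part of subset proportions in the Rgs1 difference was not tested. The Rgs1 call ended under the replicate block and without WT total array 1, 2 or 3 or Mst1/2-KO total array 1 or 2 (adjusted p from 0.00667 to 0.152 over 14 alternatives), and Gadd45b was called when WT total array 1 was left out (-1.20, adjusted p = 0.0277).

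Between the subsets, the fit without the replicate block called immediate-early members lower in CD8+ than in CD8- DCs, and none higher. They were 12 of the 27 in Mst1/2-KO cells and 14 in WT cells. In Mst1/2-KO cells these were all the calls, so 12 of 35 members were called lower and 0 higher, against 9.30% of all genes lower and 9.93% higher. Differences were below 0 for 25 members (43.8% of all genes), 16 had an unadjusted p under 0.05 (28.6%) and 13 were apart below (9.95%). Gadd45b was 3.21-fold lower in CD8+ DCs (8.59, 8.19, 7.59 and 7.78 against 9.66, 10.18, 9.66 and 9.39 in CD8-, difference -1.68 ± 0.18, adjusted p = 1.7e-06). Gem was 2.74-fold lower (5.46, 5.51, 5.37 and 5.73 in CD8+, 7.08, 7.72, 6.31 and 6.78 in CD8-, -1.45 ± 0.26, adjusted p = 0.000448). Both were apart without overlap, with Gem near the same low level on all CD8+ arrays.

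The AP-1 subunit Fosl2 had 7.50, 7.19, 7.31 and 6.77 in Mst1/2-KO CD8+ DCs, against 8.68, 8.65, 8.81 and 8.17 in Mst1/2-KO CD8- DCs (-1.39 ± 0.27, adjusted p = 0.000881). Rgs1 was 2.39-fold lower (8.72, 8.64, 8.16 and 8.27 in CD8+, 9.88, 9.88, 9.74 and 9.31 in CD8-, -1.25 ± 0.16, adjusted p = 9.69e-06). Array 4 was the lowest of the CD8- arrays in both. Dusp5 had 7.58, 7.37, 7.43 and 7.06 in CD8+, against 8.33, 8.08, 8.28 and 8.19 in CD8- Mst1/2-KO DCs (-0.86 ± 0.20, adjusted p = 0.00512). Nr4a1, the orphan receptor Nur77, had 11.21, 11.15, 11.07 and 10.80 in CD8+, against 11.69, 11.78, 11.71 and 11.48 in CD8- Mst1/2-KO DCs (-0.61 ± 0.15, adjusted p = 0.00756). Junb, an AP-1 subunit, had 9.38, 9.31, 9.26 and 8.92 in CD8+, against 9.77, 9.97, 9.70 and 9.72 in CD8- Mst1/2-KO DCs (-0.58 ± 0.18, adjusted p = 0.0354). All 3 were apart, the Nr4a1 groups by the narrowest margin.

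Atf3, a stress-responsive AP-1 partner, had 10.22, 10.46, 9.98 and 10.36 in CD8+, against 10.78, 11.05, 10.73 and 10.76 in CD8- Mst1/2-KO DCs (-0.57 ± 0.18, adjusted p = 0.0280). The other 4 called members were Dusp2 (-0.54), Ier2 (-0.51), Zfp36 (-0.49), which encodes tristetraprolin, a protein that destroys cytokine mRNA, and Rgs2 (-0.27). Of the 8 feedback members, 7 were called. No heat-shock member was called (median -0.04), and Egr3 ran the other way (9.54, 8.32, 9.58 and 8.31 in CD8+, 8.24, 7.86, 8.44 and 7.39 in CD8-, 0.95 ± 0.37, adjusted p = 0.0929). Egr3 was called higher with both WT arrays numbered 1 left out of the shared fit (adjusted p = 0.0232). The calls of Junb, Atf3 and Rgs2 ended under 8, 4 and 3 of 17 alternatives; among them Junb's ended without any of the 8 arrays except Mst1/2-KO CD8+ array 1.

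Without the replicate block, 15 of 35 members in WT cells were called lower in CD8+ than in CD8- DCs and 0 higher. Of all genes, 10.0% were called lower and 11% higher. Differences were below 0 for 33 members (43.9% of all genes), 21 had an unadjusted p under 0.05 (29.7%) and 12 were apart below (10.2%). Same-numbered WT CD8+ and CD8- arrays deviated together, and with the array number as a block 26 members were called lower, against 11% of all genes. The 11 added by the block were Dnajb1 (-0.90, adjusted p = 5.6e-05), Hsph1 (-0.57, adjusted p = 0.0013), Hspa1b (-0.33, adjusted p = 0.0046), Hspa1a (-0.29, adjusted p = 0.0188), Fosb, Fos, Junb, Klf2, Klf6, Dusp2 and Dusp5. The SEs and p-values given next for the WT subsets are those without the block. Gem was 6.14-fold lower (5.93, 6.62, 5.80 and 6.03 in CD8+, 8.18, 9.30, 8.57 and 8.81 in CD8-, -2.62 ± 0.26, adjusted p = 5.36e-07). Egr1 was 2.33-fold lower (9.74, 8.98, 8.60 and 8.81 in CD8+, 10.43, 10.24, 10.11 and 10.22 in CD8-, -1.22 ± 0.19, adjusted p = 0.000103). Both genes were apart, and Egr1 on CD8+ array 1 came nearest to the CD8- arrays.

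Fosl2 had 8.15, 7.23, 6.81 and 7.59 in WT CD8+ DCs, against 9.37, 8.47, 8.26 and 8.33 in WT CD8- DCs (-1.16 ± 0.27, adjusted p = 0.00362). Rgs1 had 9.68, 9.12, 9.02 and 9.16 in WT CD8+ DCs, against 10.21, 10.44, 10.34 and 10.26 in WT CD8- DCs (-1.07 ± 0.16, adjusted p = 5.41e-05). Ier3 had 8.33, 7.77, 8.24 and 7.73 in WT CD8+ DCs, against 9.36, 9.0, 8.64 and 8.53 in WT CD8- DCs (-0.87 ± 0.21, adjusted p = 0.00598). None of these 3 overlapped between subsets, and in Fosl2 array 1 was the highest of each subset. Nr4a1 had 11.62, 11.07, 10.67 and 11.05 in WT CD8+ DCs, against 12.16, 11.92, 11.88 and 11.80 in WT CD8- DCs (-0.84 ± 0.15, adjusted p = 0.000439). Jun, the founding AP-1 subunit, had 9.82, 9.65, 9.16 and 9.53 in WT CD8+ DCs, against 10.37, 10.35, 10.22 and 10.53 in WT CD8- DCs (-0.83 ± 0.19, adjusted p = 0.00382). Gadd45b had 9.95, 9.82, 9.93 and 9.92 in WT CD8+ DCs, against 10.95, 10.76, 10.57 and 10.58 in WT CD8- DCs (-0.81 ± 0.18, adjusted p = 0.00325). These groups were apart too, Gadd45b with the tightest CD8+ arrays of all members named here.

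The remaining 7 called members in WT cells were Ier2 (-0.72), Atf3 (-0.67), Jund (-0.56), Rgs2 (-0.44), Egr2 (-0.42), Zfp36 (-0.42) and, the only heat-shock member called without the block, Hsp90aa1, the inducible form of the chaperone Hsp90 (-0.40 ± 0.09, adjusted p = 0.00384). By role, 4 of 7 AP-1, 2 of 3 EGR, 1 of 3 NR4A, 0 of 2 KLF, 2 of 4 other early-response and 5 of 8 feedback members were called. Medians were -0.43 over the 27 immediate-early and -0.31 over the 8 heat-shock members, against 0.03 over all genes. The calls of Egr2 and Jund ended under 5 and 4 of 17 alternatives, and Jund's other probe set gave -0.22 (adjusted p = 0.341). With both WT arrays numbered 1 left out, 18 members were called lower, and without WT CD8+ array 1 alone, 20.

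Of the members called without the block, 9 were lower in CD8+ DCs of both genotypes (Gem, Fosl2, Rgs1, Gadd45b, Nr4a1, Atf3, Ier2, Rgs2 and Zfp36). That is 75% of the 12 called in Mst1/2-KO and 60% of the 15 called in WT cells. Without the block, Dusp5, Junb and Dusp2 were called in Mst1/2-KO cells only, and Egr1, Ier3, Jun, Jund, Egr2 and Hsp90aa1 in WT cells only. These lists depend on the fit. With the block, 16 members were called lower in Mst1/2-KO and 26 in WT cells, and none in Mst1/2-KO cells only. Dusp5, Junb, Dusp2, Ier3, Jun, Fosb and Hspa1a were then also called lower in both genotypes. Egr1, Jund, Egr2, Hsp90aa1, Dnajb1, Hsph1, Hspa1b, Fos, Klf2 and Klf6 were then called lower in WT cells only. The difference between the 2 subset differences is the interaction above, in which 0 members were called without the block. With the block, Dnajb1 alone was called there (0.82, adjusted p = 0.0280).

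Markers of other cells also differed between the subsets. Plasmacytoid DC markers were called lower in CD8+ than in CD8- DCs for 4 of 5 in Mst1/2-KO cells (list median -1.51) and 2 of 5 in WT cells (-0.43). NK cell markers were called lower for 2 of 5 in Mst1/2-KO and 4 of 5 in WT cells. T cell markers were called lower for 5 of 5 in Mst1/2-KO and 4 of 5 in WT cells, and macrophage and monocyte markers for 4 of 6 in each genotype (list mean 7.57 to 7.85 in CD8+ against 9.02 to 9.26 in CD8- Mst1/2-KO DCs, and 7.54 to 7.82 against 8.84 to 9.24 in WT DCs). B cell markers were called lower for 2 of 5 in Mst1/2-KO and 3 of 5 in WT cells, with 1 higher in each. Their part in the members' differences was not tested.

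**Figure D3:**
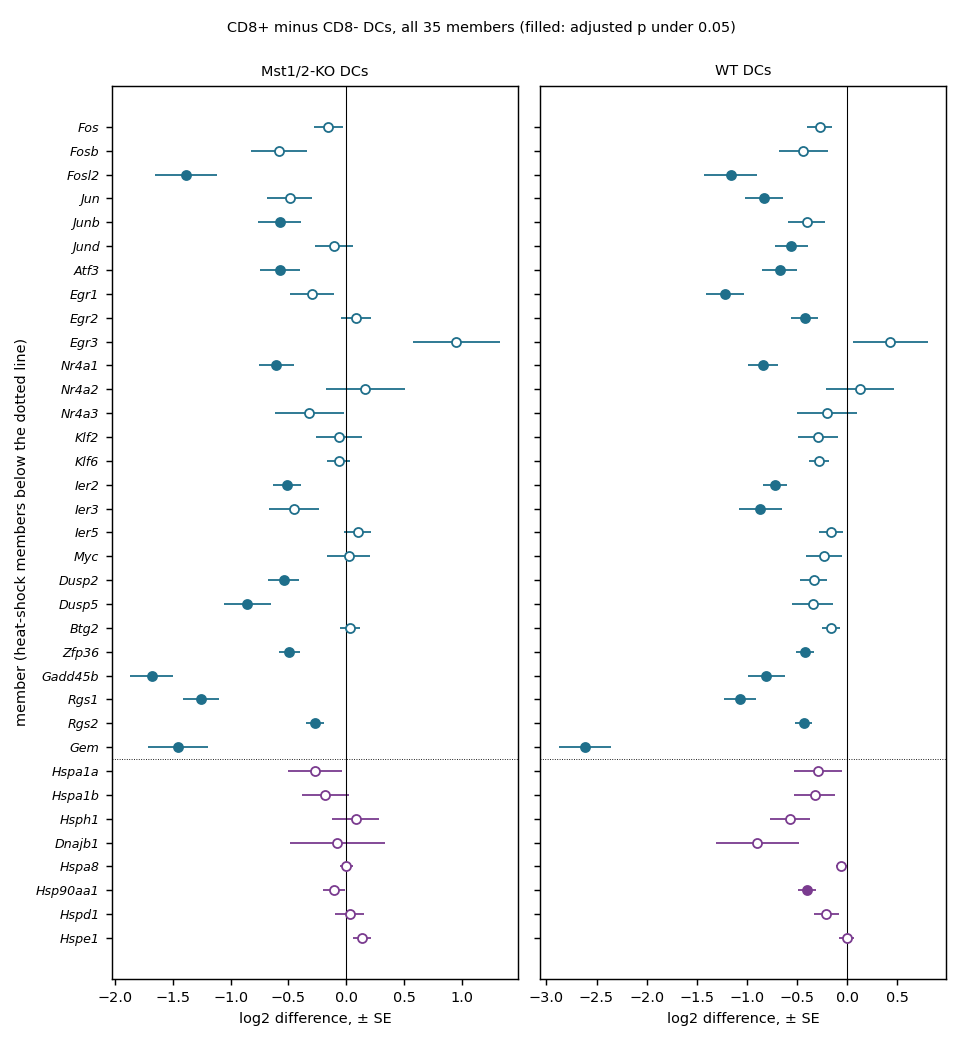
Log2 difference, CD8+ minus CD8- DCs, of the 35 measured members (rows) in Mst1/2-KO and in WT cells, with the standard error from limma as bars, immediate-early members above and heat-shock members below the dotted line, and filled points where the adjusted p was under 0.05; the x axes differ in range. All filled points, from the fit without the replicate block, lie below 0, 12 in Mst1/2-KO and 15 in WT cells.

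The heat-shock genes moved with the array number in all 4 sorted groups. On the arrays numbered 2 and 4, 30 of 32 heat-shock values each (8 members in 4 groups) lay above their group mean, and on the arrays numbered 1 and 3 only 2 and 4 of 32 did. Dnajb1 had the largest pooled within-group SD of all members over the 16 arrays (0.68 on the log2 scale, above 99.7% of all genes). It had 6.74, 7.84, 6.62 and 7.62 in Mst1/2-KO CD8+ DCs, 6.71, 7.86, 7.40 and 7.82 in WT CD8+ DCs, 6.61, 8.16, 6.38 and 7.99 in Mst1/2-KO CD8- DCs and 7.52, 8.83, 8.34 and 8.68 in WT CD8- DCs. In every group arrays 2 and 4 were the 2 highest. Hspa1b, an inducible Hsp70, also had arrays 2 and 4 as the 2 highest in every group. It had 9.96, 10.58, 9.86 and 10.60 in Mst1/2-KO CD8+ and 10.43, 10.73, 10.55 and 10.70 in WT CD8+ DCs. In CD8- DCs it had 10.09, 10.83, 9.95 and 10.86 (Mst1/2-KO) and 10.71, 11.03, 10.95 and 11.02 (WT). Hspa8, the constitutive Hsp70 member, varied least (pooled SD 0.04, above 0.108% of all genes). That holds for its brightest probe set, which averaged 12.4 over all arrays where the highest value of any probe set was 13.2. Whether this high level limits its spread was not tested, and its dimmer probe sets (averages 12.4, 11.3 and 10.9) are not described here. These are descriptions over 4 groups, chosen after the values were seen and with no test, and the labels do not say what the number stands for.

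Immediate-early members varied by array in another way. On the arrays numbered 1, 84 of 108 immediate-early values (27 members in 4 groups) lay above their group mean, and 58, 30 and 28 did on the arrays numbered 2, 3 and 4. WT CD8+ array 1 had 25 and WT CD8- array 1 had 23 of 27 members above the group mean, by 0.37 and 0.28 on average, while their heat-shock members lay below it by 0.27 and 0.34. Egr3 had 9.54, 8.32, 9.58 and 8.31 in Mst1/2-KO CD8+ DCs and 9.05, 8.16, 7.92 and 8.15 in WT CD8+ DCs, and 8.24, 7.86, 8.44 and 7.39 in Mst1/2-KO CD8- DCs and 9.0, 7.57, 7.65 and 7.35 in WT CD8- DCs. Nr4a2, the orphan receptor Nurr1, had 10.44, 9.61, 10.39 and 9.45 in Mst1/2-KO CD8+ DCs and 11.15, 10.01, 9.58 and 9.94 in WT CD8+ DCs, and 9.94, 9.89, 10.20 and 9.19 in Mst1/2-KO CD8- DCs and 10.88, 9.98, 9.68 and 9.65 in WT CD8- DCs. In both genes array 1 led each WT group, arrays 1 and 3 led each Mst1/2-KO group, and the within-group spread (pooled SD 0.62 and 0.56) was above that of 99.6% and 99.5% of all genes.

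Nr4a3 had 10.73, 10.81, 10.70 and 9.84 in Mst1/2-KO CD8- DCs, against 11.97, 11.08, 10.60 and 10.68 in WT CD8- DCs, with WT array 1 the highest and Mst1/2-KO array 4 the lowest (pooled SD 0.49). Fosl2 and Gem, whose values are given above, followed with pooled SDs of 0.44 and 0.43. The other 29 members ranged from 0.04 to 0.40.

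**Figure D4:**
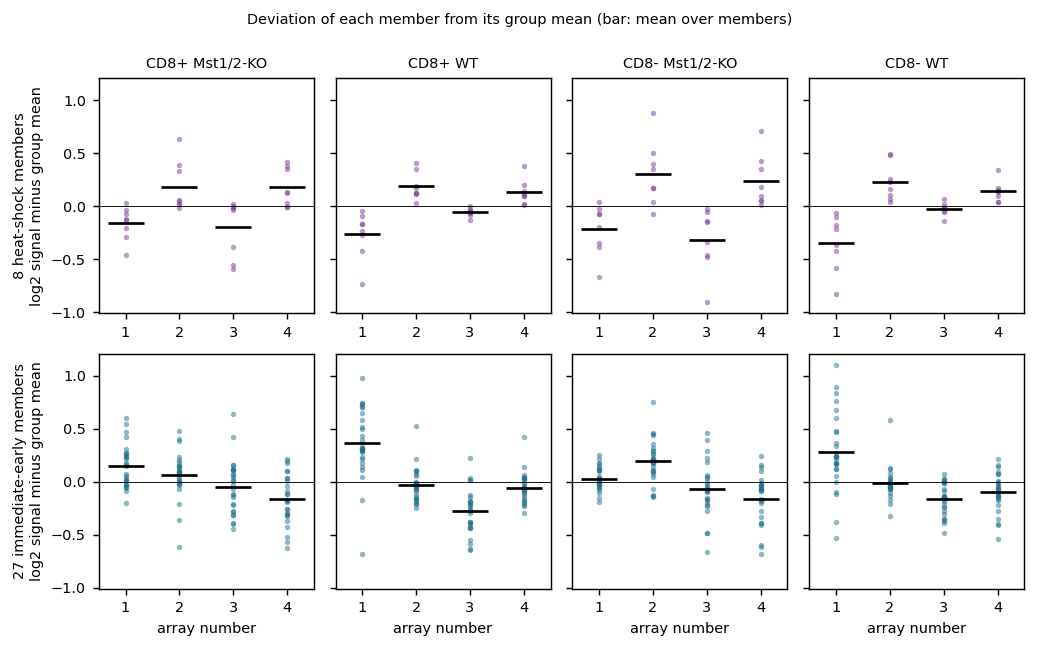
Deviation of each member's log2 signal from its group mean (y axis) by array number (x axis) in the 4 sorted groups, for 8 heat-shock members (top) and 27 immediate-early members (bottom); points are members and bars their mean. Heat-shock bars lie above 0 on arrays 2 and 4 and below 0 on arrays 1 and 3 in all 4 groups, and the highest immediate-early bars are on the WT arrays numbered 1.

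The p38 comparison asked what loss of p38 does in anti-CD40-stimulated Rag1-KO DCs. No member and no gene of the array was called by limma (0% of all genes), with 7 members and 1866 genes (8.41%) at an unadjusted p under 0.05. Mapk14, which encodes p38 alpha, was not lower on the arrays labelled Rag1-KO p38-KO (8.47 against 8.24, adjusted p = 0.657). Whether its probes fall inside the deleted part is unknown, so directions below are those of the labels. Dusp2, a phosphatase of ERK and p38, had 7.50, 7.50 and 7.52 on the arrays labelled Rag1-KO p38-KO, against 7.84, 8.13, 8.78 and 8.68 on the Rag1-KO arrays (-0.85 ± 0.23, adjusted p = 0.476). Gem had 6.07, 6.44 and 6.80 there, against 7.36, 7.05, 7.18 and 6.88 on the Rag1-KO arrays (-0.68 ± 0.19, adjusted p = 0.483). Rgs1 had 9.14, 9.01 and 9.13, against 9.64, 9.61, 9.76 and 9.69 on the Rag1-KO arrays (-0.58 ± 0.06, adjusted p = 0.141). These groups were apart, Rgs1 by the widest margin for its spread.

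Dusp5 had 7.61, 7.72 and 7.75 on the arrays labelled Rag1-KO p38-KO, against 8.32, 8.24, 8.13 and 8.37 on the Rag1-KO arrays (-0.58 ± 0.07, adjusted p = 0.190). In all, 7 members were apart below and 0 above, against 3.60% and 3.89% of all genes. The other 3 were Ier5 (-0.42), Atf3 (-0.34) and Fos (-0.27). Neutrophil markers moved with the same arrays (list mean 4.47 to 5.67 on those labelled Rag1-KO p38-KO, 6.12 to 6.98 on the Rag1-KO arrays), and their part was not tested.

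In experiment 2, each comparison rests on a lone array whose spread is assumed to be that of the 11 arrays of both experiments. After anti-CD40, the 2 Rag1-KO arrays had 10.14 and 9.43 for Hspa1b, against 10.90 on the non-stimulated Rag1-KO array (-1.12 ± 0.83, adjusted p = 0.631). Hspa1a had 9.84 and 9.16, against 10.31 (-0.81 ± 0.67, adjusted p = 0.677). Hsph1, an Hsp110 that recharges Hsp70, had 8.04 and 8.05, against 8.63 (-0.59 ± 0.40, adjusted p = 0.594). The anti-CD40 arrays were the lower ones in these 3, and higher in Gadd45b (9.66 and 10.25, against 9.45; 0.50 ± 0.29, adjusted p = 0.519). No member was called against 0.0361% of all genes, and 1 had an unadjusted p under 0.05, against 13.1%. With a lone array on one side, 33.1% of all genes were apart above and 36.8% below.

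Against the anti-CD40 WT array, the 2 anti-CD40 Rag1-KO arrays had 10.14 and 9.43 for Hspa1b, against 11.40 (-1.62 ± 0.83, adjusted p = 0.434). Hspa1a had 9.84 and 9.16, against 10.83 on the WT array (-1.33 ± 0.67, adjusted p = 0.429). Hsph1 had 8.04 and 8.05, against 8.72 (-0.67 ± 0.40, adjusted p = 0.507), and Fosl2 had 8.04 and 8.30, against 7.41 (0.76 ± 0.57, adjusted p = 0.608). No member was called against 0.365% of all genes, and 5 had an unadjusted p under 0.05, against 14.0%. Both comparisons share the 2 anti-CD40 Rag1-KO arrays. Neutrophil markers averaged 7.06 and 7.39 on these, against 6.28 on the non-stimulated Rag1-KO and 5.67 on the WT array.

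Within the groups of total DCs and experiment 1, the spread differed among heat-shock members. Hspa8, by the same bright probe set, spanned 0.19 log2 units over the Mst1/2-KO and 0.27 over the WT total DC arrays. Hspa1b spanned 2.06 log2 units (4.17-fold) over the 4 anti-CD40 Rag1-KO arrays of experiment 1 (11.57, 10.70, 11.07 and 9.51) and 1.54 over the 3 labelled Rag1-KO p38-KO (9.41, 10.94 and 10.68). It spanned 1.37 over the 3 Mst1/2-KO total DC arrays (10.43, 11.06 and 9.69) and 1.70 over the 4 WT total DC arrays (10.97, 10.38, 11.03 and 9.33). Hsph1 spanned 2.08 (4.21-fold) over the WT total DC arrays (8.26, 7.49, 9.37 and 7.29). In both genes WT total array 4 was the lowest. On that array 0 of 8 heat-shock members lay above the group mean, and on WT total array 3 all 8 did.

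**Figure D5:**
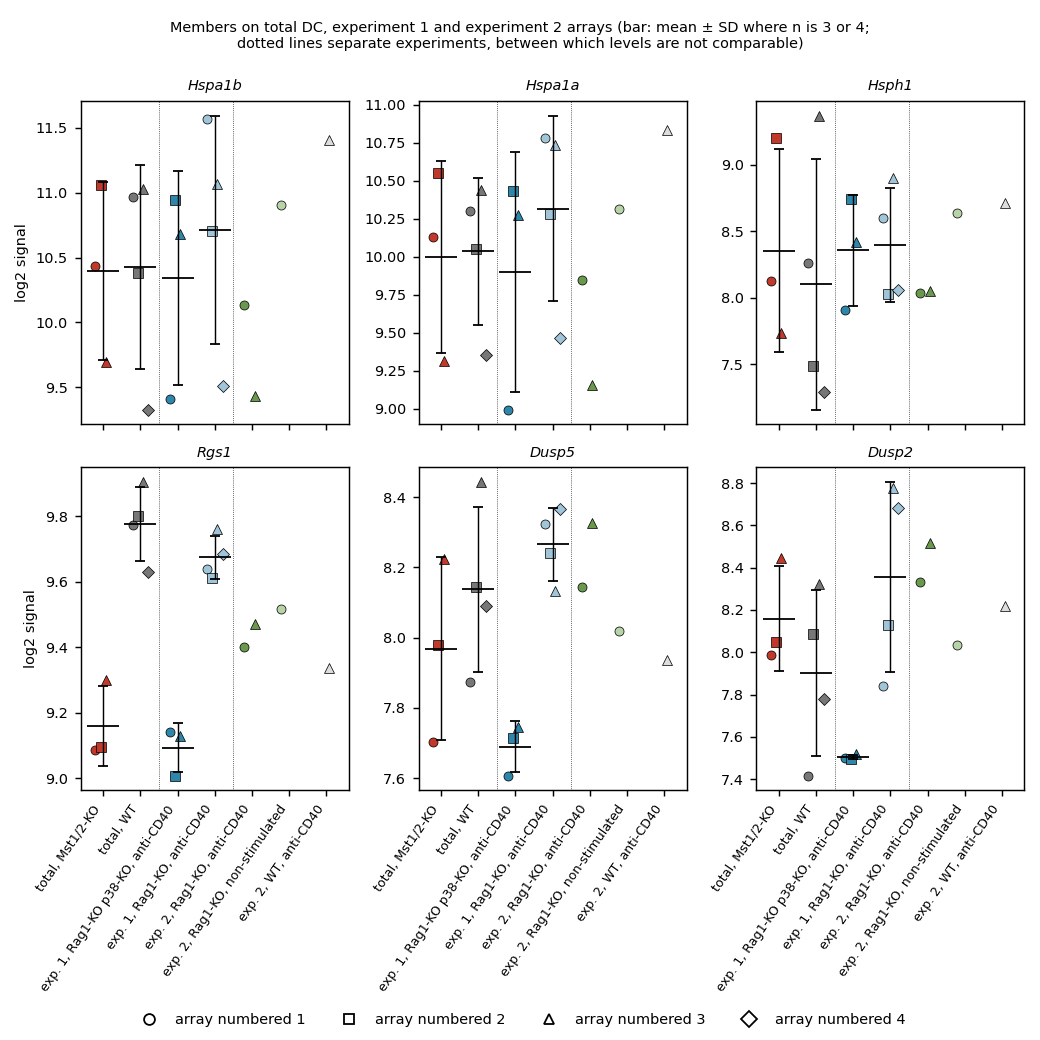
Log2 signal (y axis) of 3 heat-shock and 3 immediate-early members on each array of the total DC, experiment 1 and experiment 2 groups (x axis), with marker shapes for array numbers and bars for mean ± SD where a group has 3 or 4 arrays; dotted lines separate experiments, whose levels are not comparable. Rgs1 is apart between genotypes in total DCs and in experiment 1, and within the groups of total DCs Hspa1b spans 1.37 (Mst1/2-KO) and 1.70 (WT).

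Related genes outside the 36 were taken as a list of 50 immediate-early genes, 47 of them measured, and a list of 46 heat-shock and chaperone genes, 43 of them measured. In CD8+ DCs, 4 of 47 immediate-early genes were lower in Mst1/2-KO cells and 0 higher (median -0.12), against 0.654% and 0.234% of all genes, namely Mxd1, a Myc antagonist (-1.05 ± 0.15, adjusted p = 0.000931), Bhlhe40 (-1.01), the NF-kB brake Tnfaip3 (-0.93) and Elk3 (-0.53), an ETS factor. In CD8- DCs 4 were lower and 1 higher (median -0.15), against 2.79% and 3.90% of all genes, the lower ones including Gadd45g, a relative of Gadd45b (-1.44 ± 0.18, adjusted p = 0.000117), Mxd1 (-0.89) and Tob1 (-0.62), and the higher one being Batf (0.43). In total DCs Mxd1 (-0.98) and the prostaglandin synthase Ptgs2 (-0.98) were lower and none higher (median -0.09), against 0.532% and 0.316% of all genes.

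None of the 43 heat-shock and chaperone genes was called by genotype in CD8+ or total DCs (medians 0.10 and 0.15, with 12 and 11 at an unadjusted p under 0.05, against 10.6% and 13.2% of all genes). The smallest p values there belonged to Hsf2 (-0.39, adjusted p = 0.111) and Hspa9 (0.25, adjusted p = 0.111) in CD8+ DCs, and to Fkbp4 (0.52, adjusted p = 0.137) and Cct8 (0.27, adjusted p = 0.189) in total DCs. In CD8- DCs 1 was lower, Dnaja4 (-0.84), and 2 were higher, the Hsp90 co-chaperone Fkbp4 (0.60) and the chaperonin subunit Cct8 (0.28). The median was 0.12, and 2.79% of all genes were lower and 3.90% higher. Dnaja4 had a low signal, averaging 4.48 in Mst1/2-KO and 5.32 in WT CD8- DCs where array medians ranged from 4.11 to 4.20. The measured heat-shock members had a median of -0.31 in the same cells.

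Between subsets, 21 of 47 other immediate-early genes were lower in CD8+ than in CD8- DCs and 1 higher in Mst1/2-KO cells, and 18 lower and 2 higher in WT cells. Of all genes, 9.30% were lower and 9.93% higher in Mst1/2-KO cells, and 10.0% lower and 11% higher in WT cells. Ptgs2 was furthest down (-4.69 in Mst1/2-KO and -4.45 in WT cells), followed in Mst1/2-KO cells by Bhlhe40 (-3.03), Plk2 (-2.86) and Elk3 (-2.54), and in WT cells by Elk3 (-2.41) and Bhlhe40 (-2.28). The kinase-like Trib1 was higher in WT CD8+ DCs (1.76). Of the 43 chaperone genes, 5 were higher and 1 lower in Mst1/2-KO CD8+ DCs, and 8 higher and 3 lower in WT CD8+ DCs, the 5 higher ones being a share near that of all genes. The mitochondrial Hsp90 Trap1 (0.60 in Mst1/2-KO, 0.76 in WT) and Cdc37 (0.35 and 0.55) were higher in CD8+ DCs, as was Cct3 in Mst1/2-KO cells (0.33), and Dnajb4 was lower (-0.72 and -0.79), as was Dnaja4 in WT cells (-0.56).

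In the interaction, in experiment 1 and in both comparisons of experiment 2, none of these 90 related genes was called. The smallest adjusted p among immediate-early genes was 0.0637 for Batf in the interaction (-0.70), with Plk2 next (-1.43, adjusted p = 0.182), 0.190 for Bhlhe40 in experiment 1 (-0.46), with Ets2 next (-0.97, adjusted p = 0.205), 0.0562 for Mafk after anti-CD40 (-0.79), with Klf9 next (-0.54, adjusted p = 0.173), and 0.119 for Gadd45g in Rag1-KO against WT (-1.03), with Spry1 next (0.37, adjusted p = 0.145). Among chaperone genes it was 0.286 for Dnaja4 (0.65) and 0.664 for Cdc37 (-0.21) in the interaction, and 0.367 for Hspa2 (-0.75) and 0.391 for Dnaja2 (-0.29) in experiment 1. In experiment 2 it was 0.297 for Dnaja4 (0.31) and 0.314 for Cryab (-0.73) after anti-CD40, and 0.193 for Hspb1 (-0.48) and 0.233 for Trap1 (-0.24) in Rag1-KO against WT.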

How the data were processed

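RNA of FACS-sorted spleen DCs (1 to 5 ng) was amplified and biotin-labelled with NuGEN kits, per the labels' protocols. The authors deposited normalized log2 signals; RMA and Partek 6.6 appear in the submitters' processing notes. All 34 array columns were used (0 were left out). Of 41155 probe sets, 23521 carry a single gene symbol, giving 22180 genes. From the fifth decimal on, 98.4% to 99.3% of probe sets share their digits within an experiment label and 0.00972% across labels, so comparisons stay within a label.

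Differences between group means were estimated by limma 3.58.1 (R 4.3.3) with lmFit and eBayes, and calls used p-values adjusted over all genes by Benjamini-Hochberg, at 0.05. The 16 sorted arrays shared a fit, the 7 total DC arrays and the 7 arrays of experiment 1 had their own, and experiment 2 pooled its spread with experiment 1 (11 arrays). SD and SE are on the log2 scale. The fit was run on simulated data with noise independent between arrays, which does not test it for arrays that deviate together. Members, lists and tests were chosen with earlier results of these data known. Per comparison, values on each array are given for called members (the 8 largest changes where more), or for the 4 largest changes where fewer than 4 were called, and for the 6 members with the largest within-group SD. From the related lists up to 4 called genes, or else the 2 smallest p, are named; genes of those lists without a probe set of their own are not analysed here.

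Replicate numbers were taken to pair arrays only where the correlation of deviations passed a fixed cutoff in every same-numbered pair. Only the WT CD8+ and CD8- arrays passed (0.126 to 0.337). The replicate block was an alternative there too, and the main fit had none. Alternatives covered the normalization, the genes and arrays in the fit, the probe sets, the variance prior, array weights, the replicate block and each array left out. Leaving out both WT arrays numbered 1 was added after the data were seen. Promoter sequences are RefSeq's for GRCm38.p6.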

Additional observations from a re-analysis of the deposited data

Results flagged for a closer look

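Over 6 groups of 4 arrays, 11 of 210 sets of member values held an array standing apart from the other 3, by the gap to its neighbour over the whole range (Dixon's 95% criterion), and chance alone gives about 5% of sets. No explanation was tested for any of them.

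On the log2 scale, Junb stood high on array 1 of WT CD8+ DCs (10.175, the others 9.25 to 9.34) and on array 1 of WT CD8- DCs (10.399, the others 9.71 to 9.80). In Mst1/2-KO CD8+ DCs, Fos was low on array 3 (7.9444, the others 8.33 to 8.39), and Ier3 (7.2954, the others 8.02 to 8.10) and Rgs2 (11.361, the others 11.60 to 11.63) were low on array 4. In Mst1/2-KO CD8- DCs, Atf3 (11.045, the others 10.73 to 10.78) and Rgs2 (11.965, the others 11.76 to 11.79) were high on array 2, and Nr4a3 was low on array 4 (9.8368, the others 10.70 to 10.81). In WT total DCs, Ier3 was high on array 4 (9.2556, the others 8.51 to 8.54). In anti-CD40 Rag1-KO DCs of experiment 1, Rgs2 was low on array 4 (11.652, the others 11.76 to 11.78) and Hspa8 high on array 3 (12.488, the others 12.40 to 12.41).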

How the results depend on the processing

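The 82 member differences given array by array or called under any setting were recomputed 1326 times. Of these values 1214 kept direction and side of the threshold, 39 lost the call, 73 gained one and 0 reversed. Member counts moved as follows, with the share of all genes called under the same setting; the causes were not tested. For genotype in CD8+ DCs (2 called, 0.888%), fitting only the 2 groups gave 1 (0.555%), the replicate block 4 (1 higher, 1.23%), and leaving out each array 1 to 3. For genotype in CD8- DCs (3, 6.68%), trend and robust priors gave 6 (7.11%), array weights 8 (8.95%), the replicate block 10 (7.28%), all lower, and leaving out each array 2 to 6. For the interaction (0, 0.559%), array weights (Egr1, 1%) and the replicate block (Dnajb1, 0.951%) each gave 1, both WT arrays numbered 1 left out gave 1 (Egr1, 1.14%), and leaving out each array 0 to 1. For the subsets in WT (15, 21%), the replicate block gave 26 (22.7%), and leaving out each array 13 to 20. In Mst1/2-KO cells (12, 19.2%), the replicate block gave 17 (1 higher, Egr3; 21%), and leaving out each array 9 to 12. In total DCs (1, 0.848%), the replicate block gave 0 (0.487%), and leaving out each array 0 to 1. In experiments 1 and 2, 0 members were called under every setting run. Outside the WT subsets the numbers were not taken to pair arrays, as the lowest correlation fell short of the cutoff. Every same-numbered pair of the Mst1/2-KO subsets and of experiment 1 still deviated together. Correlations of deviations were 0.0926 to 0.213 between Mst1/2-KO subsets, against at most 0.0718 between different numbers. In experiment 1 they were 0.0935 to 0.162, against at most 0.0758. Between genotypes they were -0.071 to 0.0885 (CD8+), 0.0128 to 0.0863 (CD8-) and 0.0465 to 0.130 (total). The number of arrays limits the precision of all of these.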

Other observations

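Probe sets shared by several genes were in no comparison. The Dnaja1 probe set, shared with Mir207, averaged 7.69 in Mst1/2-KO against 7.63 in WT CD8+ DCs and 7.76 in Mst1/2-KO against 7.87 in WT CD8- DCs. A probe set shared by Hspa1a and Hspa1b averaged 8.38 in Mst1/2-KO against 9.02 in WT CD8+ DCs, and 8.74 in Mst1/2-KO against 9.57 in WT CD8- DCs. It ranged from 7.59 to 9.05 on the Mst1/2-KO CD8+ arrays and from 8.76 to 9.28 on the WT CD8+ arrays, and from 7.91 to 9.41 on the Mst1/2-KO CD8- arrays and from 9.17 to 9.85 on the WT CD8- arrays, so the groups overlapped in both subsets. An Hspa8 probe set shared with Snord14e averaged 10.25 in Mst1/2-KO against 10.28 in WT CD8+ DCs, and 10.48 against 10.84 in CD8- DCs. It ranged from 9.86 to 10.60 on the Mst1/2-KO CD8+ and from 9.46 to 10.71 on the WT CD8+ arrays. On the CD8- arrays it ranged from 9.97 to 11.01 (Mst1/2-KO) and from 9.84 to 11.30 (WT). None of these was tested.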
